A study of Homo sapiens with 6 samples.

Results

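The JAK kinases and STAT factors were followed in RNA-seq libraries of K562, a Bcr-Abl-positive human line derived from chronic myeloid leukemia. The genes were JAK1, JAK2, JAK3, TYK2, STAT2, STAT3, STAT5A, STAT5B and STAT6, taken by symbol from a table of 12486 genes. Of these 9 genes, 8 were measured here, namely 3 kinases and 5 STAT factors, and JAK3 was not analysed here. Control cells stably expressed an shRNA against luciferase (sh-luc), and knockdown cells stably expressed an shRNA against lncRNA-up91 (sh-up91), the long noncoding RNA that the paper calls lncRNA-IUR1. Each group had 3 libraries, called unnumbered, r1 and r2 after their titles. The targeted RNA was not analysed here, and the depth of its knockdown in these libraries is not given. The labels of both groups name no drug, and the paper describes the RNA as coming from independent groups of cells, without saying whether each had its own infection. The p-values therefore measure the spread between these libraries.

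In the JAK-STAT pathway, a cytokine brings receptor chains together, and the JAK kinases bound to them phosphorylate each other and the receptor. STAT factors dock on the receptor, are phosphorylated on a tyrosine near their C-terminal end, pair up and enter the nucleus to activate genes. In chronic myeloid leukemia, the Bcr-Abl kinase keeps STAT5 phosphorylated without a cytokine. RNA-seq reads the transcripts of these proteins and not their phosphorylation. The comparison asked whether the transcripts of the kinases and factors differed between knockdown and control cells.

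STAT5A and STAT5B are close copies, and their sequences bear on how well their RNA values can be told apart. In GRCh38, STAT5B occupies chromosome 17 from 42199177 to 42288370 on the minus strand, STAT5A lies from 42287439 to 42311943 on the plus strand, and STAT3 lies from 42313324 to 42388442 on the minus strand (RefSeq spans). The spans of STAT5A and STAT5B overlap by 932 bases where the genes point away from each other, and 1380 bases separate STAT5A from STAT3. The 3 genes together span 189266 bases. The canonical GENCODE transcripts of STAT5A and STAT5B have 19 exons each, and their coding sequences were identical at 2090 of 2348 aligned bases (89.0%). Between any other pair of STAT factors followed here, the coding identity was between 58.7% and 65.7%. The longest identical run of STAT5A and STAT5B was 429 bases, from coding base 564 to 992, in exons 6 to 9 of both transcripts. The following 120 coding bases cover the left edge of this run, in exons 5 and 6, and are shown because a fragment inside the run fits both genes equally well. Capitals mark the bases that differ, and the coordinates run from the first to the last base shown, introns included.
STAT5A (chr17:42295792-42299868, plus strand): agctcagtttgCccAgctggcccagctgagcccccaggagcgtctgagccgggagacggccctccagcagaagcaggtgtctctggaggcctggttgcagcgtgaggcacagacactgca
STAT5B (chr17:42219725-42223383, minus strand): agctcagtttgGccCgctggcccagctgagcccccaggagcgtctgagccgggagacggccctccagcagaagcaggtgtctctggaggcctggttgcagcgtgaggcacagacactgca

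The codon of the tyrosine that is phosphorylated on activation is codon 694 of STAT5A (TAT) and codon 699 of STAT5B (TAC). It is covered by the next 60 coding bases, in exons 16 to 18, which differ at 2 positions (capitals). They are shown because this is the site through which STAT5 is switched on.
STAT5A (chr17:42308333-42309383, plus strand): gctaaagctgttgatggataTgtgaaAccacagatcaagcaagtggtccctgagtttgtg
STAT5B (chr17:42202441-42207558, minus strand): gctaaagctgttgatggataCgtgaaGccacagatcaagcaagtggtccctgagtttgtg

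The least alike stretch of 60 aligned coding bases without a gap lies in exons 2 and 3 and differs at 21 positions (capitals). It is shown as the contrast, since fragments from it can be assigned to 1 of the genes.
STAT5A (chr17:42289520-42289905, plus strand): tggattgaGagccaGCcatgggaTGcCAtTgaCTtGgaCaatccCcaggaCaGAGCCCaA
STAT5B (chr17:42227646-42232019, minus strand): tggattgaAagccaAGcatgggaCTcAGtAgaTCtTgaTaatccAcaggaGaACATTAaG

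Among windows of 50 bases, 507 of the STAT5A transcript (13.6%) also occurred in STAT5B, which is 10.1% of the STAT5B windows. For JAK1, JAK2, TYK2 and STAT6, 0 windows occurred in the canonical transcript of another gene, and for STAT3 and STAT2 the share was 1.11% and 0.849%. How fragments that fit both STAT5 genes were counted is not given in the sources used here, so the separate values of STAT5A and STAT5B are uncertain to that extent. Strand-specific counting is likewise not stated. The other genes lie apart. JAK1 is on chromosome 1 (64833229 to 65067746), JAK2 on chromosome 9 (4984390 to 5129948) and TYK2 on chromosome 19 (10350533 to 10380572). STAT2 (56341597 to 56360107) and STAT6 (57095408 to 57111362) are on chromosome 12, with 735300 bases between them.

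The deposited values are FPKM, fragments scaled to transcript length and library size. Their sum over the listed genes was between 579820 and 606240 per library, and the number of fragments per library is not given. All 10 of the listed K562 erythroleukemia markers had values, and HBG2, a fetal globin, was between 2558.91 and 3564.84 FPKM. Their summed FPKM was 6729.3 in the unnumbered sh-luc library and 5064.2 in sh-up91 r1, the highest and the lowest of the libraries. Of these 10 markers 0 were called, and the log2 fold change was below 0 for each, with a median of -0.095. With the unnumbered sh-luc library left out, 3 of them were above 0 and the median was -0.036. The part of this in the results below was not tested. Among lymphoid and mature myeloid markers, LYZ (lysozyme, of mature myeloid cells) was at 106.96 to 118.74 FPKM, while CD79A, a B cell marker, was at most 0.23 FPKM. The unnumbered sh-luc library stood apart. Its median absolute log2 deviation from the median of the other libraries was 0.132, against 0.0567 to 0.0969 for the others. The summed FPKM of 22 amino acid and stress response genes was 1600.6 in it and between 2507.4 and 3337.1 in the others, with the highest sum in sh-up91 r1. The log2 fold changes and list medians below are therefore also given without the unnumbered sh-luc library. In bulk RNA, a smaller share of cells with a transcript and less of it per cell cannot be told apart.

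STAT5 transcripts were the most abundant of the family in both groups. STAT5A was at 119.3, 137.99 and 139.8 FPKM in sh-luc and at 135.57, 141.35 and 135.26 FPKM in sh-up91, always in the order unnumbered, r1, r2. The unnumbered sh-luc library was the lowest, and the other values lay close together with overlapping groups. STAT5A carries signals of the prolactin, erythropoietin and interleukin-3 receptors. Its level was 132.4 ± 11.4 FPKM in sh-luc and 137.4 ± 3.43 FPKM in sh-up91 (SD, n = 3 each), above 95.03% of the listed genes in rank. The log2 fold change of FPKM + 1 was 0.057, with a 95% interval from -0.098 to 0.21 and an adjusted p of 0.932 from limma. Without the unnumbered sh-luc library it was -0.016 (interval -0.14 to 0.10), so the direction of STAT5A turned when that library was left out.

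STAT5B, which acts largely in parallel with STAT5A and downstream of growth hormone and interleukin-2, was at 48.71, 62.15 and 58.8 FPKM in sh-luc and at 60.07, 65.75 and 56.78 FPKM in sh-up91. The lowest value was again the unnumbered sh-luc library and the highest was sh-up91 r1, and the groups overlapped. The group means were 56.6 ± 6.996 and 60.9 ± 4.54 FPKM (SD, n = 3 each). The log2 fold change of FPKM + 1 was 0.11 (interval -0.10 to 0.32), with an adjusted p of 0.930 from limma, and it was 0.0071 (interval -0.15 to 0.16) without the unnumbered sh-luc library. Within each library, STAT5A was between 2.15 and 2.45 times as high as STAT5B in FPKM. This ratio was 2.35 ± 0.117 in sh-luc and 2.26 ± 0.116 in sh-up91 (SD, n = 3 each), a difference within the spread. STAT5A and STAT5B together made up 71.2% to 72.7% of the summed FPKM of the 5 STAT factors in every library. Their joint FPKM was 188.9 ± 18.1 in sh-luc and 198.3 ± 7.86 in sh-up91 (SD, n = 3 each). If each shared fragment was counted once, which is not given, this sum depends on their division only through transcript length.

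STAT3, the factor downstream of interleukin-6 and the shared receptor chain gp130, varied least. It was at 41.47, 44.82 and 44.02 FPKM in sh-luc and at 42.16, 45.49 and 43.99 FPKM in sh-up91, and its highest value was 1.10 times its lowest. The standard deviation of its log2(FPKM + 1) over the 6 libraries was 0.0503, which only 8.56% of the tested genes matched or fell below. Its log2 fold change was 0.014 (interval -0.12 to 0.15, adjusted p = 0.972 from limma), and -0.018 without the unnumbered sh-luc library.

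STAT6, which transmits interleukin-4 and interleukin-13, was at 17.03, 21.36 and 19.67 FPKM in sh-luc and at 21.03, 22.3 and 19.39 FPKM in sh-up91. As for STAT5B, the unnumbered sh-luc library was lowest and sh-up91 r1 highest. Its log2 fold change was 0.11 (interval -0.094 to 0.31, adjusted p = 0.930 from limma), and 0.025 (interval -0.15 to 0.20) without that sh-luc library. STAT2, the partner of IRF9 in the type I interferon response, was the lowest of the STAT factors followed here. It was at 9.49, 12.04 and 11.15 FPKM in sh-luc and at 10.2, 10.9 and 11.32 FPKM in sh-up91, and its log2 fold change was -0.0058 (interval -0.21 to 0.20, adjusted p = 0.993 from limma). Without the unnumbered sh-luc library this was -0.093 (interval -0.27 to 0.081), so for STAT2 the omission moved the estimate down.

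Among the kinases, TYK2 had the highest level and the largest estimated difference. TYK2 serves receptors for type I interferons and for cytokines of the interleukin-10 and interleukin-12 families. It was at 25.03, 30.09 and 30.94 FPKM in sh-luc and at 31.27, 35.1 and 30.59 FPKM in sh-up91. All sh-up91 libraries were above sh-luc r1, but sh-up91 r2 was below sh-luc r2, so the groups overlapped. The means were 28.7 ± 3.20 and 32.3 ± 2.43 FPKM (SD, n = 3 each), a ratio of 1.13, with a two-sided exact permutation p of 0.2. The log2 fold change was 0.17 (interval -0.032 to 0.37). In limma its p was 0.0905 before adjustment and 0.930 after it. Without the unnumbered sh-luc library it was 0.078 (interval -0.082 to 0.24).

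JAK1, which pairs with gp130, interferon receptors and the common gamma chain receptors, was at 21.3, 20.78 and 19.55 FPKM in sh-luc and at 19.69, 18.65 and 20.45 FPKM in sh-up91. It was highest in the unnumbered sh-luc library and lowest in sh-up91 r1, the reverse of TYK2. Its log2 fold change was -0.065 (interval -0.22 to 0.089, adjusted p = 0.930 from limma), and -0.040 without the unnumbered sh-luc library. JAK2, the kinase of the erythropoietin and thrombopoietin receptors, was at 12.3, 11.8 and 11.0 FPKM in sh-luc and at 12.04, 10.95 and 12.83 FPKM in sh-up91. Its lowest and highest values were both in sh-up91, and its log2 fold change was 0.026 (interval -0.16 to 0.21, adjusted p = 0.966 from limma), or 0.060 without the unnumbered sh-luc library.

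**Figure D1:**
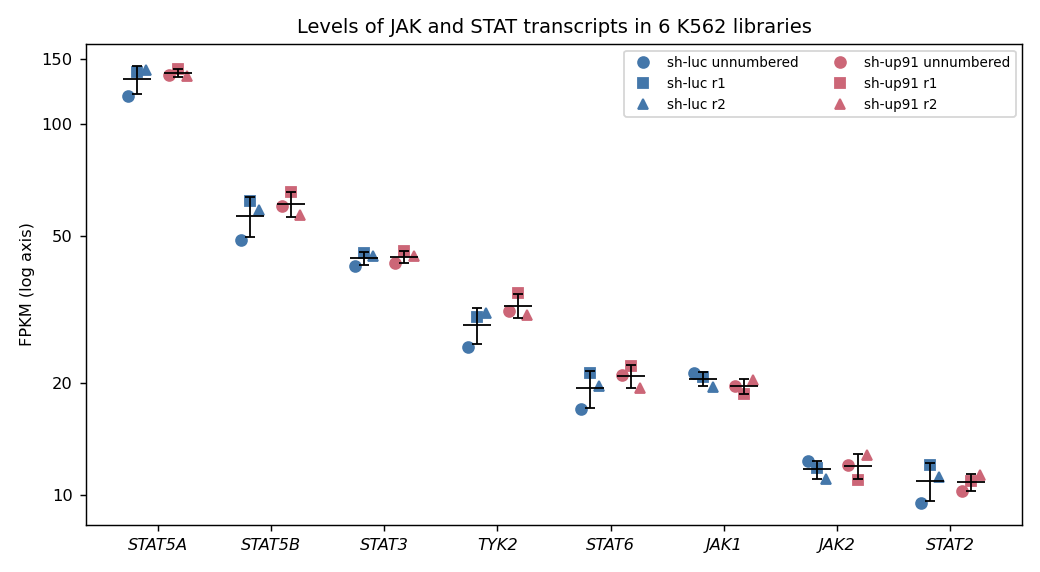
FPKM (log axis) of the 8 measured genes in each library, ordered by mean; symbols stand for libraries, horizontal bars for group means and error bars for the SD (n = 3). STAT5A sits between 119.3 and 141.35 FPKM, above all others, and sh-luc and sh-up91 overlap for every gene.

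The order of levels in FPKM, which is scaled to length, was STAT5A, STAT5B, STAT3, TYK2, STAT6, JAK1, JAK2 and STAT2. The transcript lengths used and the treatment of fragments shared by STAT5A and STAT5B are not given. The order therefore holds for the deposited FPKM and may differ from that of the transcripts. Most neighbours in this order kept it in 6 of 6 libraries. STAT5B was 1.18 to 1.45 times STAT3, STAT3 was 1.30 to 1.66 times TYK2, TYK2 was 1.41 to 1.58 times STAT6, and JAK1 was 1.59 to 1.78 times JAK2. STAT6 and JAK1 could not be ordered, since STAT6 was higher in 4 of 6 libraries with ratios from 0.800 to 1.20. JAK2 and STAT2 could not be ordered either, with JAK2 higher in 4 of 6 libraries and ratios from 0.980 to 1.30. The lowest of the genes, STAT2, still ranked above 51.5% of the listed genes by mean FPKM.

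In all, 0 of the 8 genes had an adjusted p under 0.05 in limma, where the background was 0% of the 12276 genes tested. At an unadjusted p under 0.05 there were also 0 of 8, against 2.65% of all genes tested, and 0 of 8 had groups that did not overlap, against 7.07% of all genes tested. With so few genes, 0 is near the background in each case. The log2 fold change was above 0 for 6 of the 8 and below 0 for JAK1 and STAT2, with a median of 0.041 (0.019 over all genes tested). It was above 0 for 4 of the 8 without the unnumbered sh-luc library, with a median of -0.00435 (0.0047 over all genes tested). With quantile normalization JAK2 also fell below 0 and with median-ratio scaling STAT3 did. The exact permutation p-values ranged from 0.2 to 0.9, and 3 libraries against 3 allow no p under 0.1. The 95% intervals reached at most a 1.29-fold higher level (TYK2) and at most a 0.860-fold level (JAK1) in sh-up91, on the scale of FPKM + 1. These libraries do not tell apart differences inside these intervals from 0.

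**Figure D2:**
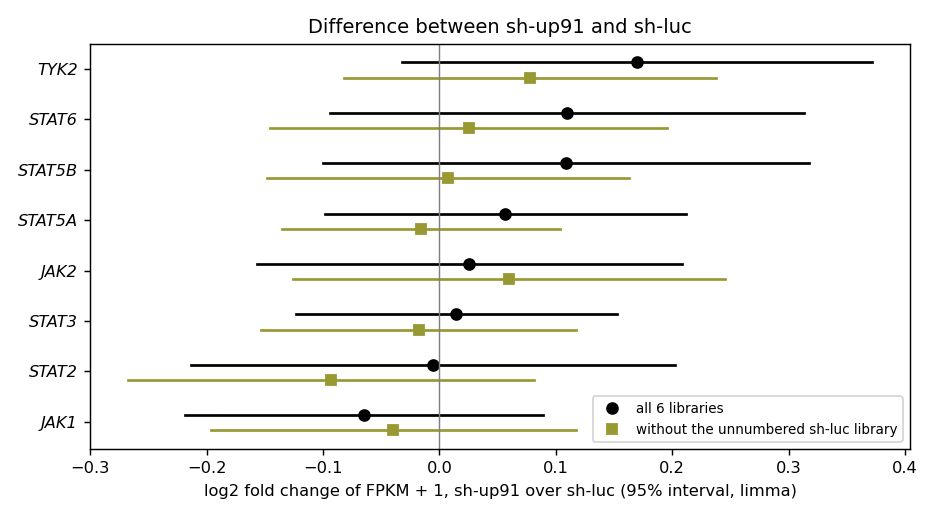
Log2 fold change of FPKM + 1 (sh-up91 over sh-luc) for each gene with its 95% interval from limma, with all 6 libraries (black circles) and without the unnumbered sh-luc library (squares). All intervals include 0, and the estimates of TYK2, STAT6, STAT5B and STAT5A move toward 0 or past it when that library is left out.

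The extremes of most genes fell in the same libraries. For 6 of the 8 genes (all 5 STAT factors and TYK2) the lowest value was in the unnumbered sh-luc library, and for 5 (TYK2, STAT3, STAT5A, STAT5B and STAT6) the highest was in sh-up91 r1. JAK1 and JAK2 instead had their lowest value in sh-up91 r1. The matching shares over all genes tested were not computed, so these counts cannot be called particular to the JAK and STAT genes. In the unnumbered sh-luc library, 370 of all tested genes deviated by more than 0.5 on the log2 scale from the median of the other libraries. In each of the others, 18 to 67 genes did. STAT2 had its highest value in sh-luc r1. The unnumbered sh-luc library and sh-up91 r1 also had the lowest and highest sum of the stress response genes (1600.6 and 3337.1 FPKM). The part of this in the results was not tested. Over the 6 libraries, Pearson's r of log2(FPKM + 1) was 0.986 between STAT5B and STAT6, 0.936 between TYK2 and STAT5B and 0.934 between STAT5A and STAT5B, as a description only. Without the unnumbered sh-luc library these were 0.958, 0.743 and 0.708. Between JAK1 and TYK2 it was -0.891, and -0.903 without that library. The spread of the genes was ordinary. The standard deviation of log2(FPKM + 1) over the libraries had a median of 0.0995 over the 8 genes and of 0.0979 over all genes tested, and TYK2, the most variable, was at the 81.5th percentile.

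**Figure D3:**
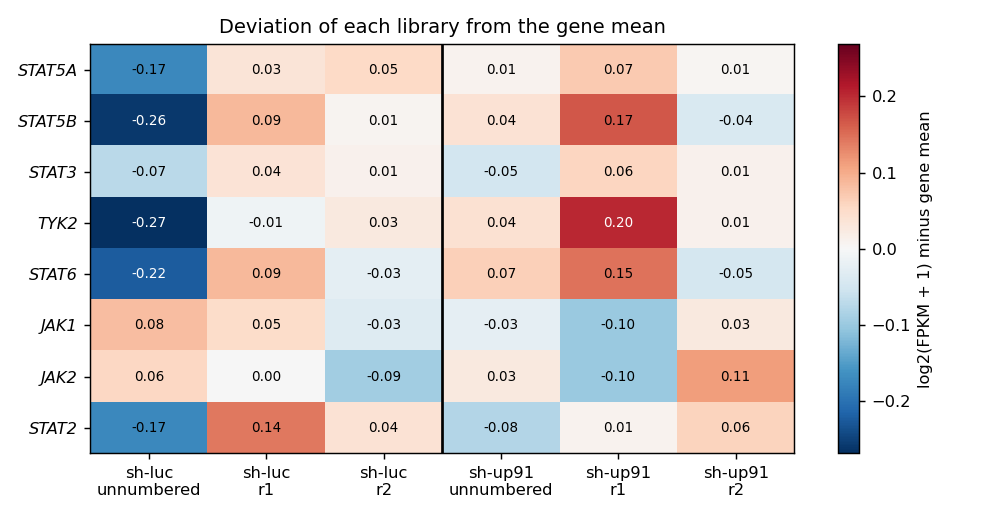
Log2(FPKM + 1) of each gene and library minus the mean of that gene over the 6 libraries (color scale, values in the cells); the vertical line separates sh-luc from sh-up91. The unnumbered sh-luc column is low for TYK2 and all STAT factors and high for JAK1 and JAK2, and sh-up91 r1 shows the opposite signs.

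These opposite movements changed the balance among the kinases from library to library. TYK2 made up 42.7%, 48.0% and 50.3% of the summed FPKM of JAK1, JAK2 and TYK2 in sh-luc and 49.6%, 54.3% and 47.9% in sh-up91, with overlapping groups. The TYK2 to JAK2 ratio ran from 2.04 to 3.21 over the libraries. The summed FPKM of the 3 kinases was 58.6, 62.7 and 61.5 in sh-luc, against 63.0, 64.7 and 63.9 in sh-up91, and these values did not overlap. The ratio of JAK1 to JAK2 did not overlap either, at 1.73, 1.76 and 1.78 in sh-luc, against 1.64, 1.70 and 1.59 in sh-up91. Both quantities were among 13 sums and ratios examined after the values had been seen, and they are given as descriptions without a test. The summed FPKM of the STAT factors was 4.03 to 4.45 times that of the kinases over the libraries.

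Some genes resembled STAT5A and STAT5B closely across the libraries. Among 10631 genes whose mean reached 1 FPKM, INTS9, ZC3H7B and GPAT4 had the highest r with STAT5A (0.998 each over 6 libraries), and AP3S2, DLGAP4 and PAX6 the highest with STAT5B (0.999 each). Without the unnumbered sh-luc library, r was 0.985, 0.980 and 0.976 for the genes named with STAT5A. It was 0.999, 0.996 and 0.999 for those named with STAT5B. Over the 6 libraries, 1060 genes had an r above 0.9 with STAT5A and 1455 with STAT5B. A high r was thus common in these libraries, and the reason was not tested.

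The promoters of the genes were searched for the letters TTCNNNGAA, the core of the element that STAT dimers bind. The search covered 250 bases before to 50 bases after each start in RefSeq (GRCh38.p14). These letters read the same on both strands. Of 16 promoters listed for the 9 genes, 0 held these letters, against 7.66% of all 35116 promoters, which says only that the letters are not in these windows.

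The wider pathway was described with 5 lists, in which 91 of 136 genes were tested. In limma, 0 of the 91 had an adjusted p under 0.05, 5 (5.49%) had an unadjusted p under 0.05, and 6 (6.59%) had groups that did not overlap, 4 higher and 2 lower in sh-up91. The respective shares over all genes tested were 0%, 2.65% and 7.07%. The count at an unadjusted p under 0.05 was 2 without the unnumbered sh-luc library, and 0 without the unnumbered sh-up91 library. The 5 genes at an unadjusted p under 0.05 with all 6 libraries were LIFR, IL20RB, IL6, CTF1 and GATA3.

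Of 41 cytokine receptor chains, 22 were tested, with 0 called in either direction, a median log2 fold change of 0.073 and 17 above 0. The median was 0.039 without the unnumbered sh-luc library, with 15 above 0. LEPR, the leptin receptor, was the most abundant, at 51.05, 46.44 and 42.69 FPKM in sh-luc and 50.32, 43.3 and 54.1 FPKM in sh-up91. IFNGR2 and IFNAR2, chains of the interferon gamma and type I interferon receptors, followed at means of 23.6 and 17.3 FPKM. LIFR, the receptor of leukemia inhibitory factor, which signals with gp130, was the receptor whose groups did not overlap. It was at 7.3, 7.88 and 7.52 FPKM in sh-luc and at 9.19, 8.49 and 8.94 FPKM in sh-up91, a log2 fold change of 0.21 (standard error 0.075, unadjusted p = 0.0215, adjusted p = 0.930 from limma). Without the unnumbered sh-luc library it was 0.18.

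Of 32 cytokine ligands, 9 were tested and 0 called, with a median log2 fold change of 0.060 and 6 above 0. Leaving out the unnumbered sh-luc library, 8 were tested, with a median of 0.058 and 6 above 0. Their levels were low, so the 1 FPKM added before taking logarithms shrinks their log2 fold changes. TSLP, a cytokine of the interleukin-7 type, IL6 and CTF1 (cardiotrophin 1, a gp130 ligand) were the highest, at means of 2.42, 2.19 and 2.15 FPKM. IL6 was at 1.9, 1.91 and 1.82 FPKM in sh-luc and at 3.1, 2.43 and 1.99 FPKM in sh-up91, without overlap (log2 fold change 0.27, adjusted p = 0.930 from limma, and 0.28 on the log2 scale without the unnumbered sh-luc library). CTF1 was at 1.56, 1.94 and 1.95 FPKM in sh-luc and at 2.98, 2.58 and 1.87 FPKM in sh-up91, with overlap.

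All 23 listed negative regulators were tested and 0 were called, with a median log2 fold change of 0.064 and 15 above 0. Omitting the unnumbered sh-luc library gave a median of 0.0080, with 13 above 0. SOCS2 and CISH, feedback inhibitors that STAT5 induces, led the list at means of 184.5 and 111.7 FPKM. SOCS2 was at 136.51, 196.57 and 187.23 FPKM in sh-luc and at 204.12, 205.35 and 177.03 FPKM in sh-up91, and like STAT5A and STAT5B it was lowest in the unnumbered sh-luc library and highest in sh-up91 r1. Its log2 fold change was 0.19, and 0.024 without that library (adjusted p = 0.930 from limma with all 6). PTPN2, a phosphatase that acts on JAK1 and STAT factors, was steady at 37.57 to 40.82 FPKM. SOCS7 did not overlap, at 3.89, 4.32 and 4.18 FPKM in sh-luc and 4.52, 4.8 and 4.39 FPKM in sh-up91 (log2 fold change 0.12, adjusted p = 0.930 from limma). This was 0.085 without the unnumbered sh-luc library.

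Of 22 adaptors and cofactors, 20 were tested and 0 called, with a median log2 fold change of 0.053 and 12 above 0. The median turned to -0.016 without the unnumbered sh-luc library, with 6 above 0. CRKL, an adaptor that Bcr-Abl phosphorylates, was at a mean of 108.5 FPKM. ABL1, the kinase gene that contributes to the Bcr-Abl fusion, was at 81.3 FPKM and LYN, a SRC family kinase, at 52.9 FPKM. Their log2 fold changes were -0.022, 0.069 and -0.0067. They were -0.053, -0.041 and -0.012 without the unnumbered sh-luc library, so the direction of ABL1 turned. SH2B1, an adaptor that binds JAK2, did not overlap, at 20.36, 20.89 and 19.67 FPKM in sh-luc and 18.83, 18.34 and 19.37 FPKM in sh-up91. Its log2 fold change was -0.10 (standard error 0.064, adjusted p = 0.930 from limma), and -0.10 also without the unnumbered sh-luc library.

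Of 18 STAT5 target genes, 17 were tested and 0 called, with a median log2 fold change of 0.026 and 10 above 0. This median was -0.00045 without the unnumbered sh-luc library, with 8 above 0. PIM1, a survival kinase, was at 436.03, 620.5 and 590.93 FPKM in sh-luc and 647.63, 691.55 and 526.81 FPKM in sh-up91. It overlapped between groups and, like SOCS2, was lowest in the unnumbered sh-luc library. Its log2 fold change was 0.19, and 0.029 without that library. CCND3, a G1 cyclin, and MYC had means of 182.6 and 169.3 FPKM, with log2 fold changes of 0.020 and 0.12. These were -0.00045 and 0.015 without the unnumbered sh-luc library. MCL1, an anti-apoptotic BCL2 family gene, did not overlap, at 52.49, 46.94 and 47.04 FPKM in sh-luc and 44.29, 41.88 and 46.18 FPKM in sh-up91 (log2 fold change -0.14, standard error 0.069, adjusted p = 0.930 from limma). For MCL1 the log2 value was -0.090 without the unnumbered sh-luc library. GATA3, a transcription factor of T cells and early hematopoiesis, also did not overlap but was low. It was at 0.24, 0.35 and 0.21 FPKM in sh-luc against 0.45, 0.45 and 0.41 FPKM in sh-up91. Its log2 fold change of FPKM + 1 was 0.18 (adjusted p = 0.930 from limma), and 0.17 without the unnumbered sh-luc library. At such levels the added 1 FPKM makes this value much smaller than the log2 ratio of the group means, 0.267 FPKM in sh-luc and 0.437 FPKM in sh-up91. GATA3 is named because its groups did not overlap, after its values were seen.

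**Figure D4:**
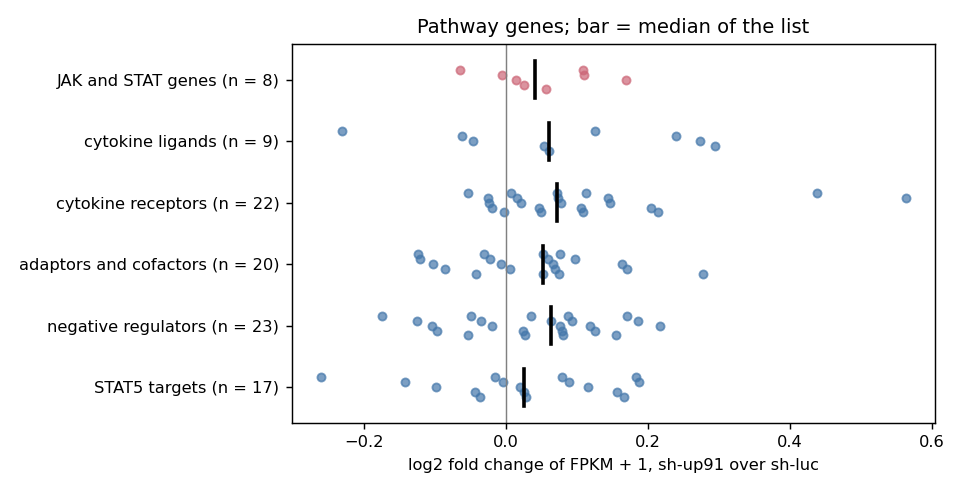
Log2 fold change of FPKM + 1 (sh-up91 over sh-luc) of each tested gene, for the 8 JAK and STAT genes and 5 pathway lists; each point is a gene and each bar a list median. The medians lie between 0.026 and 0.073 with all 6 libraries (between -0.016 and 0.058 without the unnumbered sh-luc library, not drawn), and 0 of the genes shown had an adjusted p under 0.05 in limma.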

How the data were processed

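RNA-seq values of 6 K562 libraries (3 sh-luc, 3 sh-up91) were used. The authors removed adaptors and low-quality sequence and aligned the reads to hg38. Their methods name RPKM and SAMtools 0.1.19, while the deposited columns are headed FPKM and have 2 decimals; they were used as FPKM. The aligner, the annotation and the treatment of shared fragments are not given in the sources used here. The table had been prepared for clustering, and the smallest standard deviation of a listed gene is 0.0501 FPKM. Its standardized values and cluster numbers were not used. Because depth is not given, no counting error was computed.

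Entrez identifiers were matched to RefSeq GRCh38.p14 symbols (12363 of 12486). The 12276 genes averaging 0.1 FPKM or more entered a fit of log2(FPKM + 1) with limma 3.58.1 (R 4.3.3, eBayes with a trend), with Benjamini-Hochberg adjustment over all of them. This step was tested on simulated data with independent noise and log2 changes larger than any found for the JAK and STAT genes. It therefore does not show whether changes as small as theirs would be found. Exact permutation tests were two-sided. Gene models and coding sequences came from GENCODE release 44 (GRCh38, the same build as hg38) and promoters from RefSeq. Python 3.11.15 was used for the other steps.

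The genes and lists were chosen with earlier results of these data known. Named pathway genes were the 3 with the highest mean per list, any without overlap whose mean reached 1 FPKM, and any called; genes named beyond this were chosen after their values were seen. Alternatives left out each library in turn, blocked on the replicate number, dropped the eBayes trend, rescaled the libraries (quantile normalization or median ratios), used a pseudocount of 0.1, or set the filter to 1 FPKM or to none. Counts and medians of the lists without the unnumbered sh-luc library were added after seeing the data.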

Additional observations from a re-analysis of the deposited data

How the results depend on the processing

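Under each alternative tried, 0 of the 8 JAK and STAT genes, 0 of the pathway genes and 0 of all genes tested had an adjusted p under 0.05 from limma. The smallest adjusted p of the 8 genes over these settings was 0.667, without sh-luc r1. Of 104 log2 fold changes of the 8 genes under alternatives, 94 kept their direction and 10 reversed. Of the reversals, 8 came where a library was left out, and the cause was not tested. The other filter settings, the fit without the eBayes trend and the replicate block cannot change a log2 fold change of these genes. The 94 therefore include directions that were fixed in advance. JAK2 was -0.0015 with quantile normalization and STAT3 -0.0059 with median-ratio scaling. With each library left out in turn, JAK2 ranged from -0.024 to 0.082, STAT2 from -0.093 to 0.064, STAT3 from -0.018 to 0.042 and STAT5A from -0.016 to 0.098. The others kept their sign, with TYK2 from 0.078 to 0.23, STAT5B from 0.0071 to 0.18, STAT6 from 0.025 to 0.18 and JAK1 from -0.099 to -0.031. At an unadjusted p under 0.05, 325 genes were found, 854 without sh-luc r1, 712 without sh-up91 r2, 156 without the unnumbered sh-up91 library, and 0 of the 8 genes in any setting. The count of pathway genes was 5, and 0 without the unnumbered sh-up91 library, 2 without the unnumbered sh-luc library, without sh-up91 r1 and under quantile normalization, 3 without sh-luc r2, and 9 without sh-up91 r2. In the limma fit with a replicate block, 533 genes had an unadjusted p under 0.05. TYK2 stayed at 0.17, since blocks that each hold a library of both groups cannot change the estimate. Same-numbered libraries did not deviate together throughout (r = 0.044 for the unnumbered pair, 0.385 for r1 and -0.34 for r2). Each deviation was taken from a group mean of 3 libraries that includes the library itself. These values therefore cannot decide whether same-numbered libraries shared an infection or batch, which is not given. With 3 libraries a group and no depth given, differences smaller than the intervals printed above cannot be resolved.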
